A study of Mus musculus with 4 samples.

Results

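The genes described here are those of the monocyte recruitment axis, chosen by symbol: the CCR2 ligands Ccl2, Ccl7, Ccl8 and Ccl12, the receptor Ccr2, the growth factor Csf1 with its receptor Csf1r, and the fractalkine receptor Cx3cr1. All 8 symbols were found once each among the 32285 genes of every matrix. The libraries are single-cell RNA-seq libraries of MC38b tumours grown in mice, 1 from animals given antibodies to mouse PD-1 and to mouse TL1A (labelled antiPD1TL1A, here the combination library), 1 from animals given the antibody to mouse PD-1 alone (labelled antiPD1), and 2 from animals given saline (labelled PBS1 and PBS2, here PBS 1 and PBS 2). MC38 lines are mouse colon carcinoma lines. PD-1 is an inhibitory receptor of T cells and TL1A is a cytokine of the TNF family. Tumours were taken 24 h after dose 2. The labels give 2 saline and 4 treated animals, whose cells were pooled before sorting, so animals cannot be told apart within a library. Whether PBS 1 and PBS 2 hold separate animals is not stated. CD45+CD3+, CD45+CD3- and CD45-CD3- cells were sorted and put back together at 9:9:2, so the share of each gate among the cells was set by the sorter. Strain, age and sex of the mice are not given in the sources used here.

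In mice, CCL2, CCL7 and CCL12 and, more weakly, CCL8 are secreted chemokines that bind CCR2, the receptor with which Ly6C-high monocytes leave the bone marrow and enter inflamed tissue and tumours. CSF1 binds the kinase receptor CSF1R and keeps monocytes and macrophages alive and differentiating. CX3CR1 binds fractalkine and is low on fresh classical monocytes and higher on patrolling monocytes and on many tissue macrophages. In mouse tumours, monocytes that enter through CCR2 are a main source of tumour macrophages.

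The 4 ligand genes lie in 1 cluster on the plus strand of chromosome 11. In GRCm38 the gene spans are chr11:82035571-82037453 for Ccl2, chr11:82045712-82047525 for Ccl7, chr11:82101845-82103400 for Ccl12 and chr11:82115185-82116799 for Ccl8. Ccr2 lies at chr9:124101950-124113557 on the plus strand and Cx3cr1 at chr9:119901616-120069879 on the minus strand. Csf1 lies at chr3:107741048-107760469 on the minus strand. Csf1r lies on another chromosome, and all 8 are protein-coding genes. Of 31-base stretches in the last 500 bases of each gene's transcripts, none was shared with another gene for 7 of the 8, and 10.4% (47 of 452) were shared for Cx3cr1, so a small part of the Cx3cr1 reads could belong elsewhere.

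Promoter windows from RefSeq (GRCm38.p6, 250 bases before and 50 after the start site) were matched for 5 of the 8 genes. The windows of Ccl8 (chr11:82114935-82115234, plus strand) and Ccl12 (chr11:82101595-82101894, plus strand) are shown because these neighbouring ligand genes were both read almost only in macrophages and yet moved apart under anti-PD-1. Capitals mark the letters TATAAA, the TATA box motif, which starts 32 bases before the start site in Ccl8 and 31 before it in Ccl12.
Ccl8: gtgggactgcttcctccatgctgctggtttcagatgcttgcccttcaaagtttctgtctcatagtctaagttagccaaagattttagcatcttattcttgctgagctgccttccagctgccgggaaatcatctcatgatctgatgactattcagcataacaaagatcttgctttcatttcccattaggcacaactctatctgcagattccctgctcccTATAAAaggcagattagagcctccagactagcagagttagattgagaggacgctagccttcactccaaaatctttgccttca
Ccl12: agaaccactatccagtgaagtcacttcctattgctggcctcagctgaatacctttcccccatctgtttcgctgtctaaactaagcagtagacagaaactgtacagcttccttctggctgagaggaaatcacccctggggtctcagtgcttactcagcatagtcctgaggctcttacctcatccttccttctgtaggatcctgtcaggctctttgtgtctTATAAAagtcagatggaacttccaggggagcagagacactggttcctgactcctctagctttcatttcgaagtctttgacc
The letters TATAAA stood on either strand in 13.6% of 32851 promoter windows of the same length. The window of Csf1 (chr3:107760420-107760719, minus strand, written on the gene's strand) is shown because Csf1, unlike the ligands, had its highest level in neutrophils. That holds for levels scaled to the same total of UMIs, and some sources were shared. On that scale collagen-low CD45-negative cells averaged 153 for Csf1 and 157 for Ccl2. Capitals mark a match to the kappaB motif on the strand opposite to the gene, 154 bases before the start site.
Csf1: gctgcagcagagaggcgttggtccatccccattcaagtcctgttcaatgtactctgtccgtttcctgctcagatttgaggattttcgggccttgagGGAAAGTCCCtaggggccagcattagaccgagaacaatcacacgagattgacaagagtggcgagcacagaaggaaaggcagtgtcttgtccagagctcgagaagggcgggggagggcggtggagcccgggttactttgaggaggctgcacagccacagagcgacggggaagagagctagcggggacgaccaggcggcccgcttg
The kappaB motif stood in 8.46% of the windows. The other motifs searched on both strands, with the share of windows that held them, were the AP-1 motif TGANTCA (7.81%), the interferon-gamma activated sequence TTCNNNGAA (8.3%), the core of the interferon-stimulated response element (3.44%), the PU.1 core GAGGAAGT (3.2%) and the C/EBP motif TTGCNNAA (10.8%). None of these 5 was found in the 5 windows. A match only says that these letters are there.

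The matrices held 11177 barcodes in the combination library, 13231 in the anti-PD-1 library, 6732 in PBS 1 and 6448 in PBS 2, with median UMI counts (unique molecules per barcode) of 7098, 3588, 7798 and 7645.5 in that order of libraries. The anti-PD-1 library was thus the shallowest per cell. Libraries shared barcodes: the anti-PD-1 library shared 1255 with PBS 1 and 1778 with PBS 2, PBS 1 shared 673 with PBS 2, and the combination library shared between 21 and 39 with each of the others. In the pairs without the combination library the smaller copy of a shared barcode had a median of 0.0115 to 0.0265 of the UMIs of the larger copy. Copies with at most 1/5 of the UMIs of their counterpart made up 0.0268% of barcodes in the combination library, 14.2% in the anti-PD-1 library, 2.38% in PBS 1 and 7.32% in PBS 2. Nearly all CD45-negative cells of the PBS libraries carried a shared barcode, for example 260 of 262 collagen-low cells in PBS 1 and 119 of 121 in PBS 2, and none of those was a small copy. Results are therefore also given without the small copies and without every shared barcode.

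Cells were clustered without the 8 genes and without the other genes of the pathway lists, and clusters were named from marker genes. The classes that matter here were C1q macrophage-like cells (C1qa 3540 CPM, the UMIs of a gene scaled to the same total of UMIs in every class and library; 431 cells in the combination library, 420 in the anti-PD-1 library, 373 in PBS 1 and 304 in PBS 2), a cycling form of them (57, 43, 72 and 68 cells), Ly6c2 monocyte-like cells (Ly6c2 1732 CPM; 311, 357, 238 and 215), intermediates that carried both sets of markers (141, 189, 96 and 89), Ly6c-low monocyte-like cells (160, 182, 102 and 75), neutrophil-like cells (180, 140, 136 and 190) and dendritic-like cells. CD45-negative cells formed a collagen-low class (423, 257, 262 and 121) and a collagen-high class (81, 50, 88 and 39). The epithelial genes Epcam and Krt18 were at or below 0.0405 CPM and Krt8 at or below 0.355 CPM in both. Col3a1 was read at 805 and 3438 CPM, and the class names rest on this gene alone. The other collagen genes among the markers were much lower, with Col1a1 at 6.99 and 78.1 CPM and Col1a2 at 1.08 and 0.781 CPM. Neither class is therefore called epithelial or given a type name. Clusters with few UMIs and clusters of mixed lineage were left out of the classes.

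Ccl2, the main CCR2 ligand, was read in macrophages, monocytes and CD45-negative cells alike. C1q macrophages had 602 CPM in the combination library, 356 in the anti-PD-1 library, 548 in PBS 1 and 622 in PBS 2. Ly6c2 monocytes had 614, 362, 617 and 423 CPM in the same order, and collagen-high cells 564, 150, 461 and 287 CPM. The anti-PD-1 library was the lowest of the 4 in all 3 classes. Over 16 classes with at least 20 cells per library, the mean level of Ccl2 was highest in C1q macrophages (532 CPM), followed by Ly6c2 monocytes (504), cycling macrophages (486), collagen-high cells (365) and intermediates (275), and the library ranges of neighbours in that order overlapped. Collagen-low cells followed at 157 CPM (range 116 to 214), below the range of the intermediates (263 to 289). T, B and NK cells had at most 3.39 CPM on average.

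CD45-negative cells held many UMIs (medians of 49099 to 85457 in collagen-low cells), and levels in CPM and molecules per cell ranked them differently. Collagen-high cells held 28.8 Ccl2 UMIs per cell in the combination library, 5.8 in the anti-PD-1 library, 27.9 in PBS 1 and 19.7 in PBS 2, more than C1q macrophages with 8.76, 3.73, 9.97 and 13. Collagen-high cells thus lay above C1q macrophages in all 4 libraries. Cycling macrophages held 14, 6.53, 16.5 and 24.8 per cell, above collagen-high cells in the anti-PD-1 library and PBS 2. Of the Ccl2 UMIs of the CD45-negative cells, collagen-low cells held 63.7% in the combination library, 67.5% in the anti-PD-1 library, 52.4% in PBS 1 and 60.1% in PBS 2. Of those of the CD45+CD3- cells, C1q macrophages held 43.4%, 43.5%, 48.4% and 46.3%, from 11.6%, 9.66%, 15.5% and 13.8% of the cells. Mixed-lineage clusters held a further 21.2%, 7.01%, 12.7% and 15.5%.

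A few cells carried much of the CD45-negative Ccl2. The 5 highest collagen-high cells held 32.5% of the class's Ccl2 UMIs in the combination library, 53.8% in the anti-PD-1 library, 39.8% in PBS 1 and 59.1% in PBS 2, against 15.1%, 10.9%, 12.7% and 13.8% for the 5 highest C1q macrophages. The classes held 81, 50, 88 and 39 collagen-high cells and 431, 420, 373 and 304 C1q macrophages. The 5 cells are thus a larger part of the collagen-high class, and the shares of the 2 classes are not alike in this. After each cell was thinned to 1000 UMIs, a Ccl2 UMI was found in 33.9% of C1q macrophages in the combination library (95% exact binomial interval 29.4 to 38.6, counting error only), 24.2% in the anti-PD-1 library (20.2 to 28.6), 30.3% in PBS 1 and 32.6% in PBS 2. In B cells, taken as cells without the gene, thinned shares were 0% in the combination library (0 of 107 cells, which allows up to 3.39%), 0.649% with anti-PD-1 alone and 0% in both PBS libraries. The unthinned shares in C1q macrophages were 70.5%, 61.7%, 74.8% and 84.2%, with median depths of 13134, 9912, 16678 and 19240 UMIs.

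**Figure D1:**
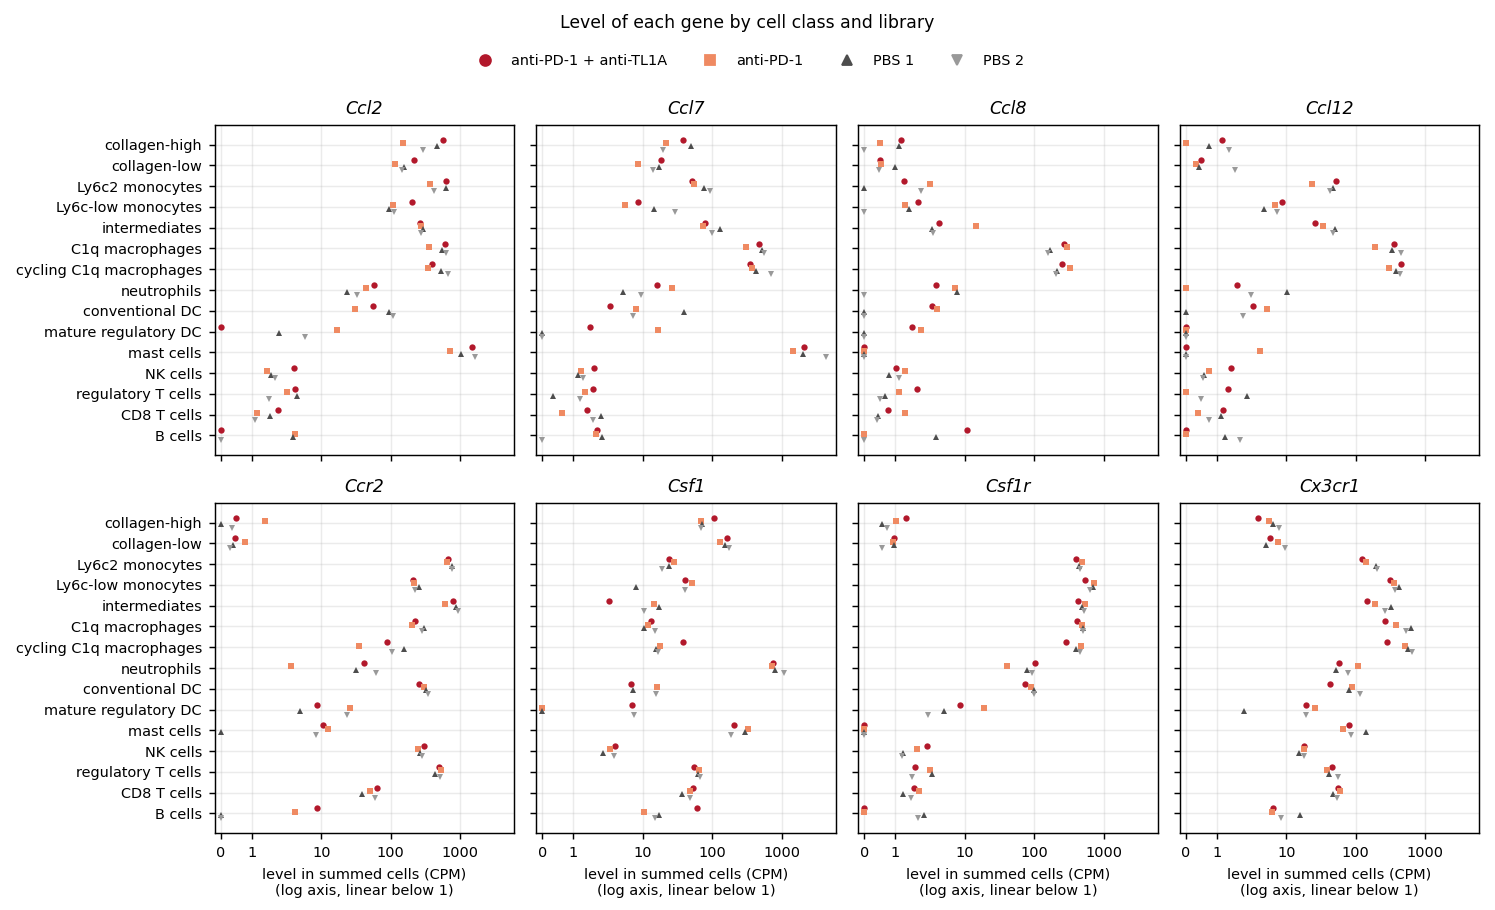
Level of each of the 8 genes (x axis, CPM, log scale, linear below 1) in the cell classes (rows), with 1 point per library. Ccl8 and Ccl12 sit high in C1q macrophages and their cycling form, Ccl2 spreads over macrophages, monocytes and CD45-negative cells, and Csf1 peaks in neutrophils at 730 to 1086 CPM.

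Ccl7, a second ligand of CCR2, was concentrated in macrophages. C1q macrophages had 461 CPM in the combination library, 307 in the anti-PD-1 library, 515 in PBS 1 and 558 in PBS 2. Cycling macrophages had a mean of 460 CPM, and the next classes, intermediates (94.5 CPM) and Ly6c2 monocytes (68.7 CPM), lay below them in every library. Ccl12, a mouse CCR2 ligand, averaged 391 CPM in cycling and 332 CPM in other C1q macrophages, against 40.9 CPM in Ly6c2 monocytes and 39.5 CPM in intermediates. Ccl8, which also binds other chemokine receptors, averaged 250 CPM in cycling and 223 CPM in other C1q macrophages and at most 6.4 CPM in each other class. These ranges of Ccl7, Ccl8 and Ccl12 did not overlap between the macrophage classes and the rest.

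Cpa3-high mast-like cells, a class of 29 cells in the combination library, 42 in the anti-PD-1 library, 17 in PBS 1 and 14 in PBS 2 that was added after its values were seen, had still higher levels of 2 ligands. Ccl2 stood there at 1480, 701, 1034 and 1630 CPM and Ccl7 at 2098, 1427, 2005 and 4286 CPM in the same order. No Ccl8 UMI was read in them. They held 3.16% of the Ccl2 UMIs of the CD45+CD3- cells in the combination library, 4.73% in the anti-PD-1 library, 1.72% in PBS 1 and 2.25% in PBS 2.

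The ligands were found in the same macrophages more often than in others. In C1q macrophages thinned to 5000 UMIs, a Ccl7 UMI was found in 59.9% of cells with a Ccl2 UMI and 9.38% of cells without one in the combination library, 59.3% and 19.8% with anti-PD-1 alone, 58.5% and 23.5% in PBS 1, and 62.1% and 26.9% in PBS 2. For Ccl12 the shares were 40.5% with and 16.9% without in the combination library, 36.1% and 20.9% with anti-PD-1 alone, 52.5% and 17.4% in PBS 1, and 50.2% and 23.7% in PBS 2. Ccl8 differed least, with 29.6% and 21.9% in the combination library, 26.8% and 19.2% with anti-PD-1 alone, 27.2% and 17.4% in PBS 1, and 23.2% and 12.9% in PBS 2. All 3 genes were read more often beside Ccl2 in each of the 4 libraries. These are shares of cells within a library and carry no test.

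**Figure D2:**
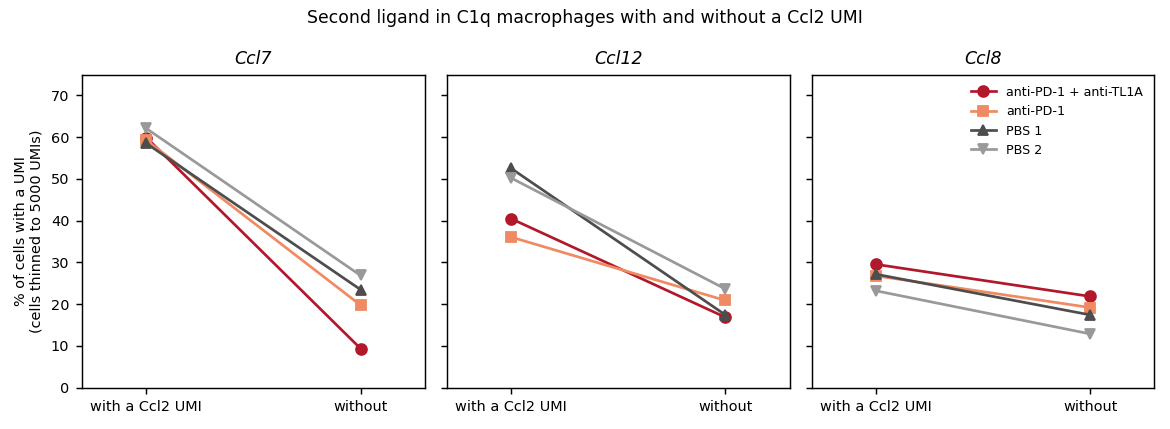
Percent of C1q macrophages, thinned to 5000 UMIs, with a UMI of Ccl7, Ccl8 or Ccl12 (y axis) among cells with and without a Ccl2 UMI (x axis), with 1 line per library. The Ccl7 lines start at 58.5% to 62.1% with Ccl2 and end at 9.38% to 26.9% without it.

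On the receiving side, Ccr2 was highest in the intermediates, with 782 CPM in the combination library, 613 in the anti-PD-1 library, 868 in PBS 1 and 916 in PBS 2. Ly6c2 monocytes had 677, 654, 761 and 757 CPM, and the 2 ranges overlapped. Regulatory T cells came next at a mean of 495 CPM (range 438 to 530), above conventional dendritic cells (306), NK cells (274), C1q macrophages (252) and Ly6c-low monocytes (226). In the CD45+CD3+ gate regulatory T cells held 52.3% of the Ccr2 UMIs in the combination library, 54.9% in the anti-PD-1 library, 50.6% in PBS 1 and 56.4% in PBS 2, from 17.8%, 16.2%, 17% and 19.6% of the cells. CD45-negative classes averaged at most 0.602 CPM.

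Csf1r (chr18:61100598-61132149, plus strand) was highest in Ly6c-low monocytes, with 548 CPM in the combination library, 727 in the anti-PD-1 library, 711 in PBS 1 and 647 in PBS 2, all above the range of the next class. Intermediates (493), C1q macrophages (481), Ly6c2 monocytes (448) and cycling macrophages (409) followed with overlapping ranges, and conventional dendritic cells (90.6) and neutrophils (78.2) lay apart below. Its ligand gene Csf1 came from other cells. Neutrophils had 755 CPM in the combination library, 730 in the anti-PD-1 library, 800 in PBS 1 and 1086 in PBS 2, against 160, 126, 153 and 171 CPM in collagen-low cells. By molecules per cell the order was reversed, with 11.4, 6.27, 12.3 and 14.6 Csf1 UMIs per collagen-low cell and 2.13, 1.41, 2.26 and 3.67 per neutrophil. In cells thinned to 1000 UMIs, 42.9%, 41.2%, 43.9% and 45.5% of neutrophils had a Csf1 UMI, against 4.67%, 0.649%, 2.38% and 1.11% of B cells. Neutrophils held 42.9%, 36.9%, 48% and 65.4% of the Csf1 UMIs of the CD45+CD3- cells. CD8 T cells held 75.5%, 70.5%, 71.8% and 73.6% of those of the CD45+CD3+ cells, from 52.2%, 41.4%, 50.6% and 52% of the cells. In CPM, Csf1 was higher in regulatory T cells (mean 61.7) than in CD8 T cells (46.2) in every library.

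Cx3cr1 averaged 499 CPM in cycling macrophages, 448 in other C1q macrophages, 365 in Ly6c-low monocytes, 230 in intermediates and 165 in Ly6c2 monocytes, with overlapping neighbours. CD45-negative classes averaged 5.94 and 7.03 CPM.

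By the correlation of log2(CPM + 1) over 16 classes, among 10082 genes with at least 20 CPM in a class, the genes whose pattern was most like Ccl2 were Gm17268 (Pearson r 0.989), Lrp1 (0.98), Fn1 (0.971), Parvb (0.968) and Adam15 (0.961). Gm17268 is annotated on the strand opposite to Ccl2 over the same stretch, and whether strand was used in counting is not stated in the sources used here, so its reads and those of Ccl2 may not be separable. For Ccl8 they were Fcrls (0.988), Ms4a14 (0.984), Pf4 (0.977), Col14a1 (0.965) and Folr2 (0.944), and for Ccl12 Stab1 (0.962), Tmem86a (0.958), Gpr84 (0.956), Gdf3 (0.956) and Trem2 (0.951). For Ccl7 they were Crat (0.963), Grn (0.958), Camk1 (0.948) and Gatm (0.943). For Csf1 the values were lower, with E230016M11Rik (0.859), Mmp9 (0.85), Hspa4l (0.841), Ddit3 (0.837) and Gm46210 (0.833). For Csf1r they were Clec4a1 (0.993), Lyz2 (0.991), Tgfbi (0.988) and P2ry6 (0.987). For Ccr2 they were Rps6ka1 (0.931), Tln1 (0.912), Tent5a (0.909), Pycard (0.904) and Otulinl (0.897), and for Cx3cr1 Lair1 (0.944), Ms4a6d (0.943), Cd68 (0.94), Man2b1 (0.938) and Nlrp1b (0.925). The points of each correlation come from the same 4 libraries.

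The series title names the question of how anti-TL1A adds to anti-PD-1, so the treated libraries were set against PBS and against each other. UMIs were summed per class and library and fitted with edgeR's quasi-likelihood test across all genes, with Benjamini-Hochberg adjusted p under 0.05 as the threshold. The spread comes from the pair of PBS libraries alone, with 1 residual degree of freedom before edgeR shares information across genes, and nothing says how far the pair holds separate animals, so the p-values measure the difference between these libraries, which may be technical. The combination library against the anti-PD-1 library compares 2 libraries. Both comparisons with PBS share the same PBS libraries and are not independent. Of 64 pairs of a gene with a class (8 classes), 55 had enough counts to be tested. Not tested were Ccl8, Ccl12, Ccr2 and Csf1r in collagen-high cells, Ccl8 in Ly6c2 monocytes, and Ccl8 and Ccl12 in neutrophils and in dendritic cells.

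In the combination library against PBS, Cx3cr1 fell in macrophages and monocytes, and Ccl8 in macrophages and Ccl2 in collagen-low cells rose. In all, 6 of the 55 pairs passed, 2 higher and 4 lower, where 1.3% of all gene-by-class pairs did (0.826% higher and 0.473% lower). C1q macrophages had 265 CPM of Cx3cr1 (scaled by TMM, the trimmed mean of M-values, as are the values of all tests) in the combination library and 399 in the anti-PD-1 library, against 614 in PBS 1 and 513 in PBS 2. The combination library was the lowest and the groups did not overlap. The difference was -1.09 ± 0.15 (log2 ± SE; adjusted p = 0.0002 by edgeR), a level 2.13-fold lower. Without a filter on low counts the call was lost (-1.08, edgeR adjusted p = 0.066).

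Cx3cr1 was also lowest in the combination library in the other members of the lineage. It stood at 273 CPM in cycling macrophages of the combination library, against 570 in PBS 1 and 644 in PBS 2 (-1.15 ± 0.18, edgeR adjusted p = 0.012). It stood at 148 CPM in intermediates, against 326 and 263 (-0.99 ± 0.22, edgeR adjusted p = 0.0015), and at 124 CPM in Ly6c2 monocytes, against 193 and 197 (-0.65 ± 0.17, edgeR adjusted p = 0.021). The anti-PD-1 library lay between the combination library and PBS in all 4 classes, with 399, 524, 195 and 148 CPM in C1q macrophages, cycling macrophages, intermediates and Ly6c2 monocytes, and did not differ past the threshold from either in the fit used here. The missing call depended on the processing: in C1q macrophages the anti-PD-1 library passed as lower than PBS with upper quartile scaling, thinned sums or finer clusters, and the treated libraries passed as different with upper quartile scaling, thinned sums or low-UMI clusters kept. With DESeq2 the calls in C1q and cycling macrophages were kept (adjusted p = 1.2e-05 and 0.0044), that in Ly6c2 monocytes was not (adjusted p = 1), and DESeq2 gave no adjusted p in intermediates. The call in intermediates was also lost without a filter on low counts, with thinned sums and with finer clusters (edgeR adjusted p = 0.74, 0.062 and 0.092). Markers of the neighbouring states differed in the same library: in intermediates the 11 macrophage markers summed to 3461 CPM in the combination library and 7360 in the anti-PD-1 library, against 6700 in PBS 1 and 4633 in PBS 2, and the 8 monocyte markers to 4846 and 3724 CPM, against 3451 and 3135 CPM. In Ly6c2 monocytes the macrophage markers summed to 1179 and 1266 CPM, against 1813 and 1315 CPM, and the part of these shifts in the Cx3cr1 values was not tested. In Ly6c-low monocytes, which normally carry much of the receptor, the difference from PBS was -0.38 ± 0.22 and did not pass (edgeR adjusted p = 0.999).

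The Cx3cr1 difference was seen at matched depth. With cells thinned to 1000 UMIs, a Cx3cr1 UMI was found in 18.3% of C1q macrophages in the combination library (95% exact interval 14.8 to 22.3) and 25.4% in the anti-PD-1 library (21.3 to 29.9), against 37.8% in PBS 1 (32.9 to 42.9) and 34.9% in PBS 2 (29.5 to 40.5). The intervals of both treated libraries lay apart from that of PBS 1, and that of the anti-PD-1 library overlapped that of PBS 2. In B cells the thinned share was at most 1.79%, at median depths of 2793 to 4879 UMIs. Markers of other cells moved with the groups in cycling macrophages, where the summed level of the T cell markers was 1197 CPM in the combination library and 401 in the anti-PD-1 library, against 427 in PBS 1 and 256 in PBS 2. In other C1q macrophages the same sum was 59.6 and 37.7 CPM, against 34.2 and 45.7 CPM. The part of these cells in the result was not tested.

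C1q macrophages fell into 3 clusters whose shares differed between libraries, and the fit was repeated within clusters, a choice made after seeing the data. The cluster led by Mir99ahg and Ms4a7 held 42.2% of the class in the combination library and 42.9% in the anti-PD-1 library, against 68.9% in PBS 1 and 54.9% in PBS 2. The cluster led by Nos2 and Arg1 held 47.3% and 48.3%, against 25.5% and 33.6%. Within the Mir99ahg cluster Cx3cr1 stood at 418 CPM in the combination library, against 756 in PBS 1 and 712 in PBS 2 (-0.81 ± 0.14, edgeR adjusted p = 0.00092), and within the Nos2 cluster at 131 CPM, against 266 and 236 (-0.94 ± 0.17, edgeR adjusted p = 0.0024). In the Chil3 Ifi205 cluster of Ly6c2 monocytes it stood at 55.9 CPM, against 136 and 130 (-1.25 ± 0.28, edgeR adjusted p = 0.0068). Cx3cr1 did not pass in the other clusters of these classes: it stood at 99.8 CPM in the Mmp12 Hmox1 macrophage cluster, against 107 and 95.2 (-0.01 ± 0.42, edgeR adjusted p = 1), and at 176 CPM in the Chil3 Plcb1 monocyte cluster, against 226 and 239 (-0.40 ± 0.17, edgeR adjusted p = 0.5). Over the 8 clusters fitted alone, 0.924% of gene-by-cluster pairs passed in this comparison.

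Ccl8 was higher in C1q macrophages of both treated libraries. Its level was 268 CPM in the combination library and 309 in the anti-PD-1 library, against 168 in PBS 1 and 153 in PBS 2. Both treated libraries lay above both PBS libraries. The difference from PBS was 0.74 ± 0.12 for the combination (edgeR adjusted p = 0.00096) and 0.94 ± 0.12 for anti-PD-1 (edgeR adjusted p = 6.3e-05), and the treated libraries differed by -0.20 ± 0.14 (edgeR adjusted p = 0.54). Without a filter on low counts the call for the combination was lost (edgeR adjusted p = 0.066) and that for anti-PD-1 was kept (edgeR adjusted p = 0.035). Within the Mir99ahg cluster the levels were 445 and 544 CPM, against 215 and 216 CPM, with differences of 1.05 ± 0.12 (edgeR adjusted p = 1.2e-06) and 1.34 ± 0.12 (edgeR adjusted p = 1e-08). In the Nos2 cluster Ccl8 stood at 121 and 84.1 CPM, against 23.8 and 64.2 CPM. The differences there, 1.41 ± 0.69 and 0.89 ± 0.75, did not pass. Cells thinned to 1000 UMIs had a Ccl8 UMI in 14.2% and 11% of C1q macrophages, against 9.92% and 8.22%, and the intervals of these shares overlapped.

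**Figure D3:**
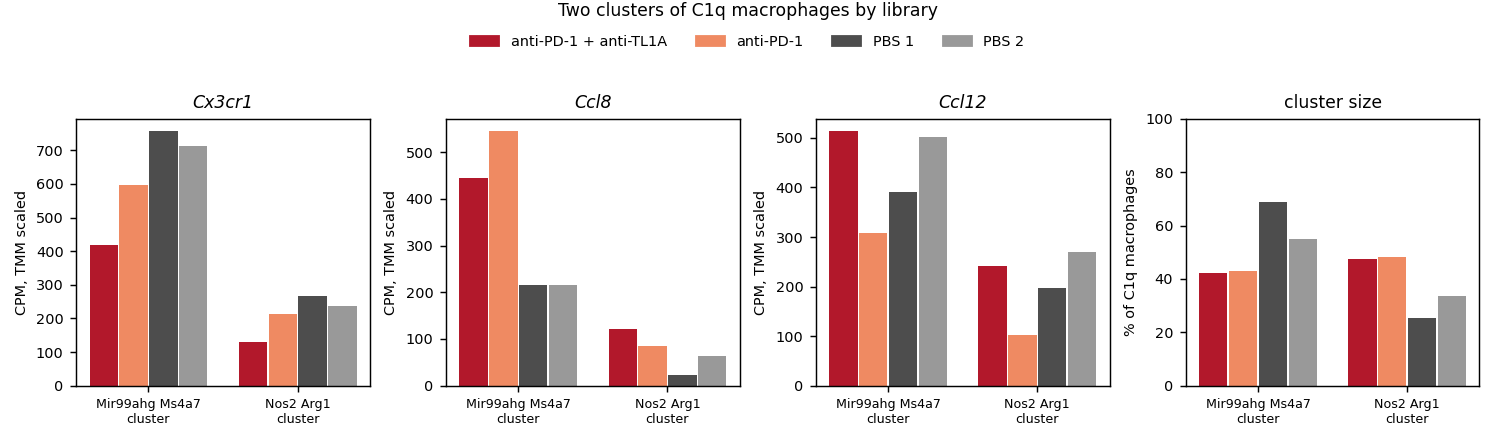
Levels (CPM, TMM scaled) of Cx3cr1, Ccl8 and Ccl12 in the Mir99ahg and the Nos2 cluster of C1q macrophages, and the percent of C1q macrophages in each cluster, with 1 bar per library. In the Mir99ahg cluster Ccl8 is at 445 and 544 CPM in the treated libraries and at 215 and 216 CPM in the PBS libraries.

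In the anti-PD-1 library against PBS, the other 3 ligands fell in C1q macrophages while Ccl8 rose. Of the 55 pairs 6 passed, 1 higher and 5 lower, where 1.96% of all gene-by-class pairs did (1.15% higher and 0.809% lower). Ccl12 stood at 202 CPM in the anti-PD-1 library, against 330 in PBS 1 and 433 in PBS 2 (-0.92 ± 0.16, edgeR adjusted p = 0.0046), while the combination library had 355 CPM. Ccl7 stood at 324 CPM, against 510 and 542 (-0.70 ± 0.15, edgeR adjusted p = 0.0062), with 459 CPM in the combination library. Ccl2 stood at 376 CPM, against 542 and 603 (-0.61 ± 0.15, edgeR adjusted p = 0.02), with 599 CPM in the combination library. For all 3 ligands the anti-PD-1 library was the lowest of the 4. Without a filter on low counts all 3 calls were lost, at differences of -0.93, -0.71 and -0.62 for Ccl12, Ccl7 and Ccl2 (edgeR adjusted p = 0.096, 0.078 and 0.11), and without doublet removal that of Ccl12 was (edgeR adjusted p = 0.062). Genes known to move with tissue handling (20, a list chosen after seeing the data) summed to 7517 CPM in C1q macrophages of the combination library and 6724 in the anti-PD-1 library, against 7792 in PBS 1 and 7209 in PBS 2. Of the 20 genes, 3 passed there for the combination against PBS (2 higher and 1 lower, where 2.49% of all genes passed), 2 for anti-PD-1 against PBS (1 higher and 1 lower, against 4.88%) and 4 between the treated libraries (all higher, against 0.79%), and their part in the ligand values was not tested. The combination library did not differ from PBS past the threshold for any of them (differences of -0.10, -0.20 and 0.06 with SE of 0.15, 0.14 and 0.14 for Ccl12, Ccl7 and Ccl2).

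The same comparison was made within clusters, where 1.64% of gene-by-cluster pairs passed. In the Mir99ahg cluster the differences were -0.64 ± 0.14 for Ccl2 (edgeR adjusted p = 0.006), -0.70 ± 0.14 for Ccl7 (edgeR adjusted p = 0.0027) and -0.54 ± 0.15 for Ccl12 (edgeR adjusted p = 0.034). In the Nos2 cluster Ccl12 stood at 103 CPM, against 196 in PBS 1 and 270 in PBS 2 (-1.19 ± 0.20, edgeR adjusted p = 0.0016), while Ccl2 and Ccl7 did not pass there (-0.43 ± 0.19 and -0.19 ± 0.37, edgeR adjusted p = 0.31 and 0.9). In the Chil3 Ifi205 cluster of Ly6c2 monocytes it stood at 36.1 CPM, against 119 and 81.1 (-1.45 ± 0.36, edgeR adjusted p = 0.024). In the Chil3 Plcb1 cluster, the other monocyte cluster, it stood at 20.7 CPM, against 7.3 and 17.9 (0.68 ± 0.44, edgeR adjusted p = 0.6). The small Mmp12 Hmox1 cluster, with 35 to 45 cells in 3 libraries and 21 in PBS 1, differed between the PBS libraries. Ccl12 stood there at 70.8 CPM in the combination library and 55.5 in the anti-PD-1 library, against 31.1 in PBS 1 and 528 in PBS 2. Ccl8 stood at 46.7 and 7.93 CPM, against 138 and 23.4 CPM, and was lower in the anti-PD-1 library (-3.17 ± 0.80, edgeR adjusted p = 0.023), the opposite of its direction in the whole class. The treated libraries lay between the PBS libraries for Ccl12, although it passed as lower in both (-2.04 ± 0.45 for the combination and -2.39 ± 0.51 for anti-PD-1, edgeR adjusted p = 0.0037 and 0.0015).

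CD45-negative cells gave the remaining calls against PBS. In collagen-low cells Ccl2 stood at 214 CPM in the combination library and 123 in the anti-PD-1 library, against 155 in PBS 1 and 137 in PBS 2. The combination library was the highest and the anti-PD-1 library the lowest. The combination differed from PBS by 0.55 ± 0.12 (edgeR adjusted p = 0.005; 0.15 with DESeq2) and anti-PD-1 by -0.25 ± 0.13 (edgeR adjusted p = 0.32). Ccl7 in the same cells stood at 18.3 and 9.15 CPM, against 16.8 and 13.5 CPM, with -0.75 ± 0.20 for anti-PD-1 (edgeR adjusted p = 0.018) and 0.25 ± 0.16 for the combination (edgeR adjusted p = 0.66). In collagen-high cells Ccl2 stood at 555 and 156 CPM, against 464 and 283 CPM, and anti-PD-1 differed by -1.27 ± 0.25 (edgeR adjusted p = 0.0002; 1 with DESeq2). The PBS libraries there lie far apart: leaving out PBS 1 or PBS 2 gave differences between -1.58 and -0.85. Thinned shares of collagen-high cells with a Ccl2 UMI were 28.4% and 8%, against 18.2% and 15.4%, with wide overlapping intervals (2.22 to 19.2 in the anti-PD-1 library, 50 cells).

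Among the 3 collagen-low clusters the Ccl2 difference between the combination and PBS had no single direction. It was 0.57 ± 0.16 in the cluster led by Hist1h2ae and Hist1h1b (edgeR adjusted p = 0.019), 1.09 ± 0.22 in the cluster led by Slurp1 and Klhl13 (edgeR adjusted p = 0.3) and -0.52 ± 0.19 in the cluster led by Robo2 and Csmd3 (edgeR adjusted p = 0.32). The 5 highest collagen-low cells held 21.5% of the class's Ccl2 UMIs in the combination library, 39.1% in the anti-PD-1 library, 21.3% in PBS 1 and 46.8% in PBS 2. The handling genes summed in collagen-low cells to 5217 CPM in the combination library and 4717 in the anti-PD-1 library. They summed to 4936 CPM in PBS 1 and 5028 in PBS 2. As for Ccl2, the combination library was the highest and the anti-PD-1 library the lowest. Their median difference from PBS was 0.23 for the combination (-0.01 over all genes tested) and -0.01 for anti-PD-1 (-0.02). The part of the handling genes in the Ccl2 values was not tested.

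**Figure D4:**
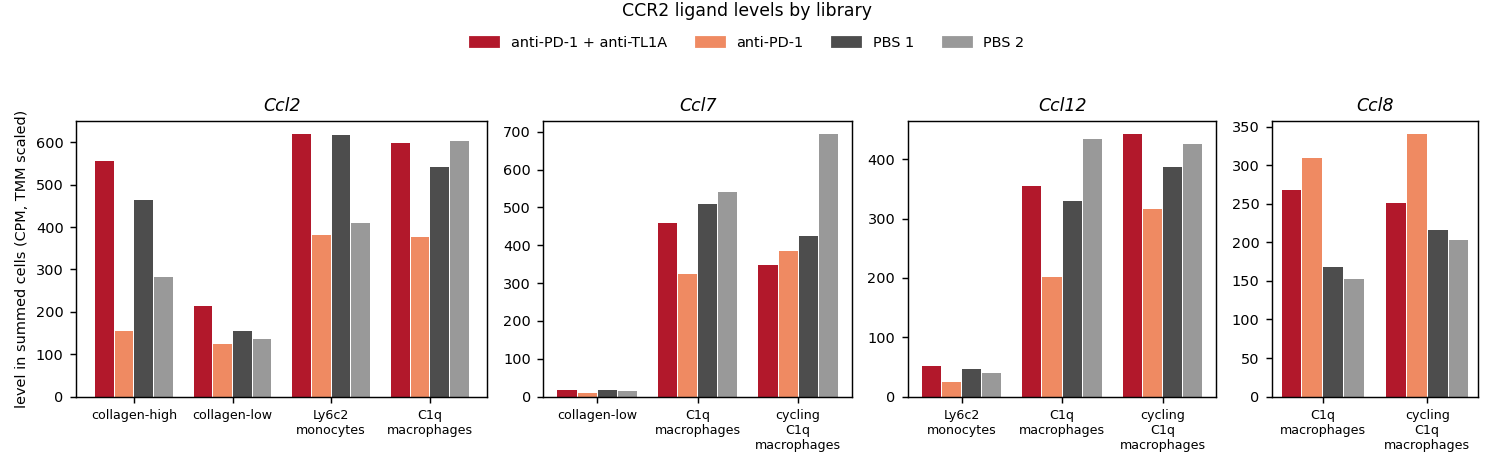
Level of the CCR2 ligand genes (CPM, TMM scaled) in the classes where they were read, with 1 bar per library. The anti-PD-1 bars of Ccl2, Ccl7 and Ccl12 are the lowest in C1q macrophages (376, 324 and 202 CPM), and its Ccl8 bar is the highest (309 CPM).

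Between the treated libraries, all calls were higher in the combination library and all were ligands. Of the 55 pairs 5 passed, all higher, where 1.1% of all gene-by-class pairs passed in either direction (0.676% higher and 0.427% lower). Ccl2 was higher in collagen-high cells (555 CPM in the combination library, 156 in the anti-PD-1 library; 1.83 ± 0.28, edgeR adjusted p = 6.8e-08) and in collagen-low cells (214 and 123 CPM; 0.80 ± 0.15, edgeR adjusted p = 0.00047). The handling genes in collagen-high cells stood in the same order of libraries as Ccl2, with sums of 5634 CPM in the combination library and 4330 in the anti-PD-1 library, against 5254 in PBS 1 and 4783 in PBS 2, and 1 of the 18 tested passed as higher, where 0.87% of all genes passed. In Ly6c2 monocytes Ccl2 stood at 619 CPM in the combination library and 382 in the anti-PD-1 library (0.70 ± 0.18, edgeR adjusted p = 0.019), with PBS 1 at 618 and PBS 2 at 409 CPM, so the anti-PD-1 library lay just below PBS 2. The handling genes summed there to 10394 and 8365 CPM, against 10345 and 8981 CPM, again in the order of Ccl2, and 4 of the 20 passed between the treated libraries, all higher, where 1.36% of all genes passed. Their part in the Ccl2 values of both classes was not tested. Ccl12 in Ly6c2 monocytes stood at 51.6 and 24.9 CPM (1.05 ± 0.30, edgeR adjusted p = 0.044), and Ccl7 in collagen-low cells at 18.3 and 9.15 CPM (1.0 ± 0.21, edgeR adjusted p = 0.0029). The Ccl12 call held under 5 of 10 alternatives. It was lost with upper quartile scaling, without a filter on low counts, without doublet removal, with finer clusters and with DESeq2, with differences of 0.18 to 1.07 and adjusted p of up to 1 over the 10, and it passed in neither monocyte cluster alone (edgeR adjusted p = 0.17 and 0.96). In C1q macrophages Ccl2 and Ccl12 lay just outside the threshold (0.67 ± 0.17 with edgeR adjusted p = 0.057, and 0.82 ± 0.18 with edgeR adjusted p = 0.052). With DESeq2 both passed, and of the 5 calls only Ccl2 in collagen-low cells did (adjusted p = 0.0078). Within the Mir99ahg cluster both passed, at 0.79 ± 0.16 (edgeR adjusted p = 0.0087) and 0.74 ± 0.17 (edgeR adjusted p = 0.024), and Ccl12 passed in the Nos2 cluster (1.23 ± 0.22, edgeR adjusted p = 0.0072), where 0.743% of gene-by-cluster pairs did. Monocyte Ccl2 passed in the Chil3 Plcb1 cluster (568 CPM in the combination library and 272 in the anti-PD-1 library; 1.06 ± 0.18, edgeR adjusted p = 7.5e-06). It did not in the Chil3 Ifi205 cluster, where Ccl2 stood at 683 and 658 CPM (0.05 ± 0.26, edgeR adjusted p = 0.99) and which held 41.8% of Ly6c2 monocytes in the combination library and 29.7% in the anti-PD-1 library.

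**Figure D5:**
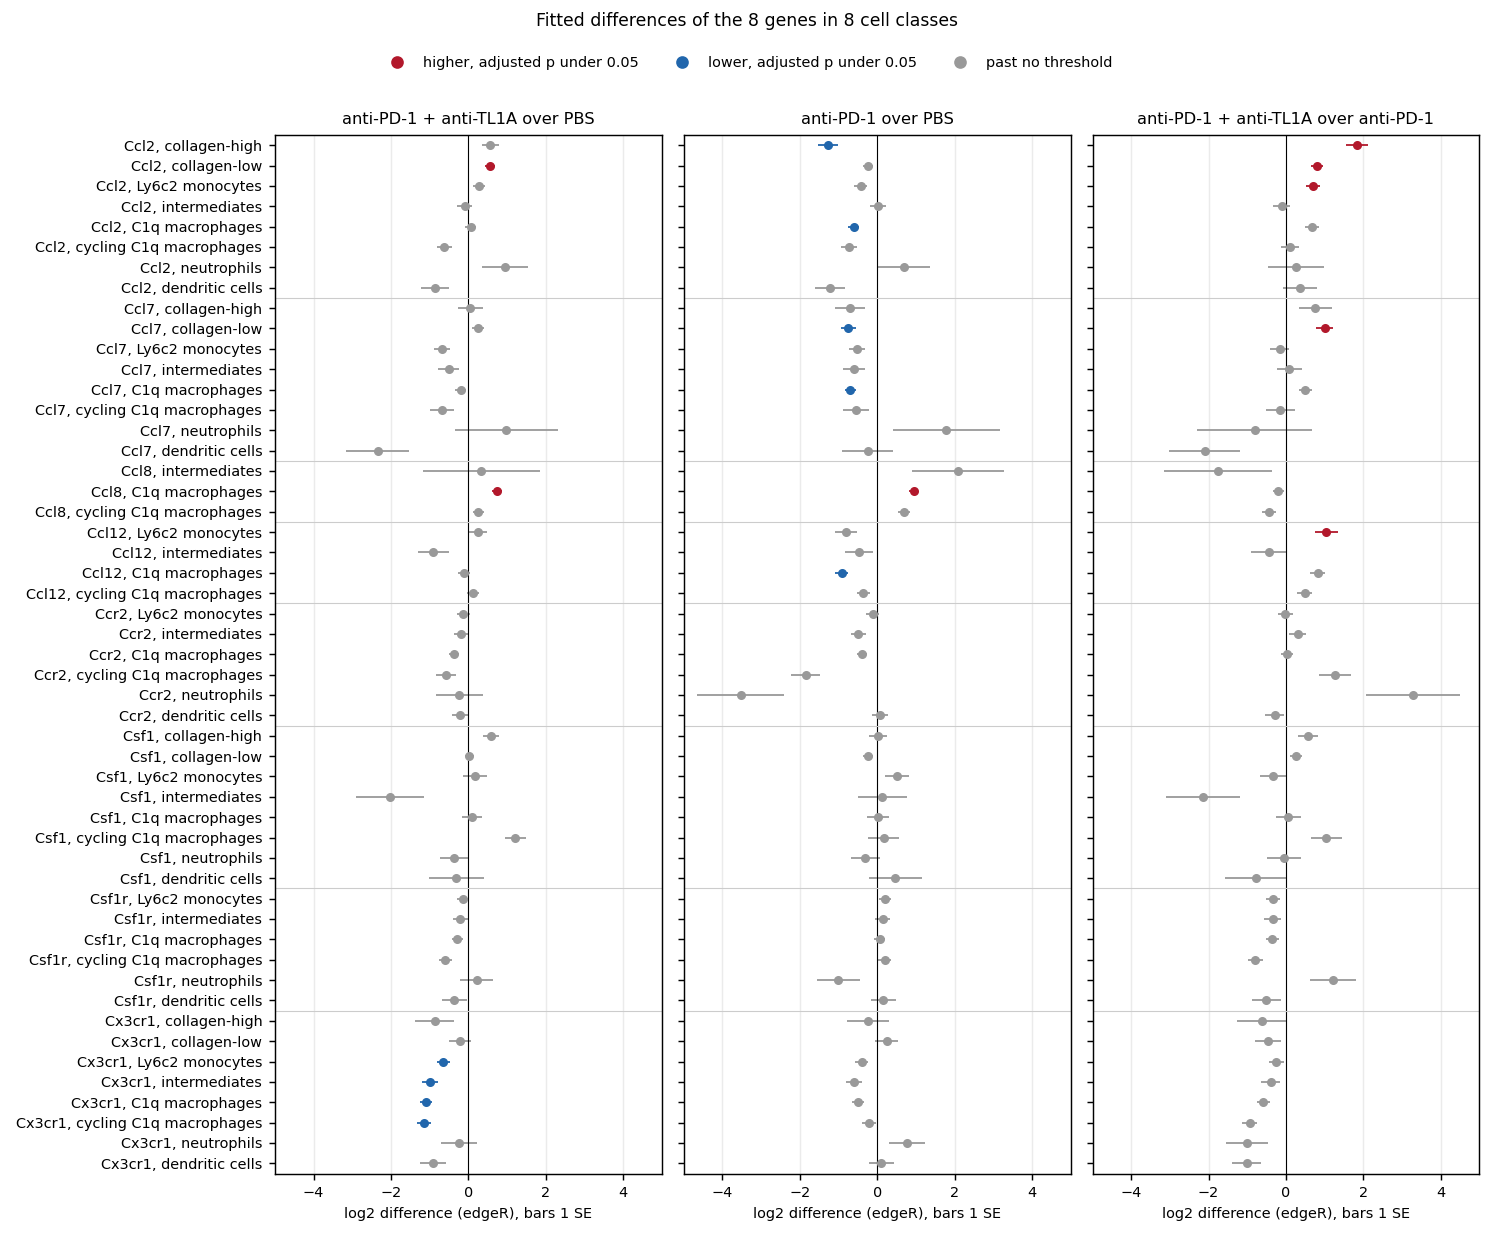
Fitted log2 differences of the 8 genes in 8 classes for the 3 comparisons (x axis, points with bars of 1 SE), for the 51 pairs with a summed level of at least 20 CPM, coloured where the edgeR adjusted p is under 0.05 (red higher, blue lower). Cx3cr1 lies at -1.15 to -0.65 in the 4 called monocyte and macrophage classes of the combination library against PBS, and all 5 called differences between the treated libraries lie above 0.

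The receptor genes Ccr2 and Csf1r and the growth factor Csf1 passed in none of the 8 classes in any of the 3 comparisons by edgeR as fitted here. Without a filter on low counts, with thinned sums or with finer clusters, some of them passed in cycling macrophages, the class with the fewest cells. Ccr2 also passed in C1q macrophages under anti-PD-1 without doublet removal and with low-UMI clusters kept. At an unadjusted p under 0.05, 18, 20 and 22 of the 55 pairs of all 8 genes lay below the threshold for the combination against PBS, anti-PD-1 against PBS and the treated libraries against each other. The share of all gene-by-class pairs below that unadjusted threshold is not given here, so these counts are not a result about the 8 genes. Ccr2 in Ly6c2 monocytes stood at 682 CPM in the combination library and 689 in the anti-PD-1 library, against 762 in PBS 1 and 732 in PBS 2, with differences from PBS of -0.13 ± 0.16 and -0.12 ± 0.16. In C1q macrophages Ccr2 stood at 222 and 217 CPM, against 295 and 274 CPM (-0.36 ± 0.13 and -0.39 ± 0.13, edgeR adjusted p = 0.15 and 0.084). Csf1r in C1q macrophages stood at 409 and 522 CPM, against 502 and 496 CPM (-0.29 ± 0.14 for the combination, edgeR adjusted p = 0.37). Csf1 in neutrophils stood at 763 and 793 CPM, against 816 and 1138 CPM (-0.36 ± 0.38 and -0.30 ± 0.38, edgeR adjusted p = 0.998 and 0.997). The PBS libraries lay further apart in neutrophils than the treated libraries did. Ly6c-low monocytes were a class added after its values were seen. Ccl2 stood there at 206 CPM in the combination library and 112 in the anti-PD-1 library, against 96.1 in PBS 1 and 114 in PBS 2. The combination differed from PBS by 0.98 ± 0.26 (edgeR adjusted p = 0.03), where 0.507% of the genes tested passed. This call held under only 5 of 9 alternatives, with differences of 0.66 to 1.02.

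Other chemokine and growth factor genes of the axis were followed as a list of 20. In the combination library against PBS, 1 of the 12 to 14 tested passed in Ly6c2 monocytes, intermediates, C1q macrophages and cycling macrophages, Ccl5 in each case, where 0.744%, 1.33%, 2.49% and 1.2% of all genes passed. Ccl5, a chemokine that attracts T cells and monocytes, stood at 571 CPM in C1q macrophages of the combination library and 493 in the anti-PD-1 library, against 211 in PBS 1 and 165 in PBS 2 (1.60 ± 0.14 and 1.39 ± 0.14, edgeR adjusted p = 1.4e-06 and 1e-05). In intermediates it stood at 792 and 686 CPM, against 196 and 213 CPM (1.95 ± 0.18 and 1.75 ± 0.18, edgeR adjusted p = 2.1e-22 and 3.3e-17). Ccl5 stood at 469 and 256 CPM in cycling macrophages, against 114 and 122 CPM, with 1.99 ± 0.15 for the combination (edgeR adjusted p = 0.00033). In Ly6c2 monocytes it stood at 150 CPM in the anti-PD-1 library, against 121 in PBS 1 and 115 in PBS 2, and the combination library was higher still, with 1.07 ± 0.16 for the combination (edgeR adjusted p = 1.1e-08). Both treated libraries lay above both PBS libraries in all 4 classes. T cell markers summed to 52.1 and 36 CPM in intermediates of the treated libraries, against 7.83 and 18.6 CPM. In cycling macrophages they summed to 1197 and 401 CPM, against 427 and 256 CPM. In C1q macrophages the sums were 59.6 and 37.7 CPM, against 34.2 and 45.7 CPM, and in Ly6c2 monocytes 49.4 and 28.9, against 18 and 27.5. The part of T cells in the Ccl5 values of these classes was not tested. The list's median difference in C1q macrophages was -0.02 for the combination, against -0.01 over all genes tested.

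In the anti-PD-1 library against PBS, 3 of the 14 axis genes tested passed in C1q macrophages, where 4.88% of all genes did. Ccl4, an inflammatory chemokine, stood at 279 CPM, against 430 in PBS 1 and 512 in PBS 2 (-0.75 ± 0.15, edgeR adjusted p = 0.0047), Ccl9 at 285 CPM, against 199 and 218 (0.45 ± 0.12, edgeR adjusted p = 0.036), and Ccl5 rose as above. The median over the list was 0.14, against 0.00 over all genes tested. In Ly6c2 monocytes, where 1.4% of all genes passed, Ccl4 stood at 251 CPM, against 502 and 337 CPM (-0.74 ± 0.16, edgeR adjusted p = 0.0033), and Ccl24 at 0.554 CPM, against 16 and 2.7 CPM (-3.89 ± 1.03, edgeR adjusted p = 0.027), with PBS libraries far apart for the second. In collagen-high cells, where 0.982% of all genes passed, Ccl5 stood at 2016 CPM in the anti-PD-1 library, against 785 and 597 (1.54 ± 0.23, edgeR adjusted p = 7.6e-08), with 849 CPM in the combination library. Ccl5 also rose in intermediates (above), collagen-low cells (0.65 ± 0.14, edgeR adjusted p = 0.004) and cycling macrophages (1.12 ± 0.17, edgeR adjusted p = 0.032), where Ccl4 fell (-1.75 ± 0.19, edgeR adjusted p = 0.0061). Between the treated libraries, Ly6c2 monocytes of the combination had more Ccr1, a chemokine receptor (332 and 174 CPM; 0.93 ± 0.18, edgeR adjusted p = 0.00019), Ccl4 (0.83 ± 0.18, edgeR adjusted p = 0.0017) and Ccl5 (0.73 ± 0.19, edgeR adjusted p = 0.014), 3 of 12 tested where 1.36% of all genes passed. Ccl4 in cycling macrophages also passed (1.65 ± 0.21, edgeR adjusted p = 0.046), and Ccl5 in collagen-high cells (-1.25 ± 0.28, edgeR adjusted p = 0.0034) and Ccl6 in intermediates (-0.98 ± 0.23, edgeR adjusted p = 0.0093) were lower in the combination library.

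Of 17 genes of CSF1R signalling and macrophage regulation, Cebpb, a transcription factor of myeloid cells, moved in most classes. In C1q macrophages it stood at 485 CPM in the combination library and 107 in the anti-PD-1 library, against 202 in PBS 1 and 160 in PBS 2 (1.42 ± 0.13 and -0.76 ± 0.15, edgeR adjusted p = 2.8e-06 and 0.0066). In Ly6c2 monocytes it stood at 1741 and 496 CPM, against 1059 and 628 CPM (1.05 ± 0.16 and -0.76 ± 0.18, edgeR adjusted p = 4e-07 and 0.0075). The combination library was the highest and the anti-PD-1 library the lowest in both, and the same order held in collagen-high cells (106 and 21.5 CPM, against 53.6 and 35.3 CPM; 0.835% of all genes passed there for the combination against PBS), so Cebpb moved with the library in CD45-negative as in myeloid cells. It was the single gene of this list that passed against PBS in each class of the combination where any passed, 1 of 13 to 17 tested. In C1q macrophages of the anti-PD-1 library 4 of 17 passed, where 4.88% of all genes did. Dusp6, a phosphatase that limits ERK signalling, differed by -0.99 ± 0.14 (edgeR adjusted p = 0.00024), Maf, a macrophage transcription factor, by -0.58 ± 0.14 (edgeR adjusted p = 0.017), and Tyrobp, an adaptor that works with CSF1R, by 0.68 ± 0.18 (edgeR adjusted p = 0.026). Dusp6, Maf and Tyrobp also passed in collagen-low cells, with -0.60 ± 0.16, -0.72 ± 0.21 and 1.70 ± 0.34 (edgeR adjusted p = 0.021, 0.034 and 0.0015). They were 3 of 17 tested there, where 4.68% of all genes passed. Csf1r itself averaged only 0.86 CPM in these cells, and the part of RNA from myeloid cells in the Tyrobp value was not tested. Between the treated libraries Cebpb passed in 7 of the 8 classes, the exception being collagen-low cells, with 2.18 ± 0.17 in C1q macrophages (edgeR adjusted p = 1.2e-06).

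Among 14 cytokines known to induce these genes and their receptors, few passed. In C1q macrophages of the anti-PD-1 library 2 of 10 did, where 4.88% of all genes passed: Ifng stood at 10.6 CPM, against 1.46 in PBS 1 and 1.53 in PBS 2 (2.80 ± 0.44, edgeR adjusted p = 0.00062), and Tnf at 106 CPM, against 61 and 78.4 CPM (0.61 ± 0.15, edgeR adjusted p = 0.023). Ifng is made by T and NK cells, and T cell markers summed to 37.7 CPM in these macrophages, within the range of the PBS libraries (34.2 and 45.7 CPM). NK cell markers were not summed, and the part of T and NK cells in the Ifng values was not tested. In collagen-low cells of the anti-PD-1 library the interferon-gamma receptor gene Ifngr1 stood at 56.1 CPM, against 99.2 and 85.6 CPM (-0.72 ± 0.13, edgeR adjusted p = 0.00054), and the cytokine gene Il1b at 3.58 CPM, against 0.754 and 0.278 CPM (2.64 ± 0.54, edgeR adjusted p = 0.0017), 2 of 8 tested where 4.68% of all genes passed. None of the list passed in C1q macrophages of the combination library at an edgeR adjusted p under 0.05, where Ifng stood at 3.49 CPM (1.21 ± 0.50, edgeR adjusted p = 0.24). In cycling macrophages of that library Ifng stood at 72.7 CPM, against 32.6 and 20.6 CPM (1.46 ± 0.27, edgeR adjusted p = 0.037), beside the T cell marker sum of 1197 CPM given above. Between the treated libraries, collagen-low cells of the combination, where 3.41% of all genes passed, had more Ifngr1 (0.59 ± 0.15, edgeR adjusted p = 0.015) and less Tgfb1 (-0.56 ± 0.16, edgeR adjusted p = 0.037).

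Without the small copies of shared barcodes the same 6, 6 and 5 pairs passed. Without every shared barcode, collagen-low, collagen-high and cycling macrophage cells could not be tested, since too few PBS cells were left, and 2, 0 and 2 of the 35 pairs left passed. Cx3cr1 differed by -0.66 in Ly6c2 monocytes (edgeR adjusted p = 0.017) and -0.97 in intermediates (edgeR adjusted p = 0.0024) in the combination library against PBS. In C1q macrophages the differences kept their directions and lost the threshold. Cx3cr1 differed by -1.12 (edgeR adjusted p = 0.066), and Ccl8 by 0.64 in the combination library (edgeR adjusted p = 0.44) and 0.86 in the anti-PD-1 library (edgeR adjusted p = 0.17). Ccl2, Ccl7 and Ccl12 in the anti-PD-1 library differed by -0.53, -0.49 and -0.67 (edgeR adjusted p = 0.39, 0.42 and 0.31). Between the treated libraries, Ccl2 (0.71, edgeR adjusted p = 0.019) and Ccl12 (1.07, edgeR adjusted p = 0.039) in Ly6c2 monocytes passed.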

How the data were processed

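Raw counts of unique molecules (UMIs) per gene and cell were deposited by the authors for 4 libraries. Per the file headers the matrices came from Cell Ranger 7.1.0, whereas version 3.0.2 and the genome build mm10 stand in the submitters' processing notes, so the version used is uncertain. Whether the filtering of barcodes or the counting by strand followed a given setting is not stated in the sources used here. Library totals were 142600208 UMIs for the combination, 82816801 for anti-PD-1, 92495603 for PBS 1 and 78648222 for PBS 2.

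Cells with at least 200 genes and at most 15% mitochondrial UMIs were kept. The automatic doublet threshold called at most 2 cells in 3 of the libraries, so the cells with the highest scrublet scores were removed at 0.8% per 1000 cells (975 in the combination library, 1364 in the anti-PD-1 library, 354 in PBS 1 and 324 in PBS 2). That left 9932, 11523, 6219 and 5957 cells. They were clustered with scanpy 1.11.5 and Leiden (leidenalg 0.10.2) on 2000 variable genes and 30 components, without the 8 genes and the pathway lists. Clusters were named from marker lists, and the names are rebuilt here, not the authors'. Ly6c-low monocytes and mast cells were added as classes after their values were seen.

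UMIs were summed per class and library. Levels are CPM values of these sums, with every sum scaled to the same total. Differences were fitted with edgeR 4.0.16 (R 4.3.3) by the quasi-likelihood test with TMM scaling, a minimum count of 10 and Benjamini-Hochberg adjustment over all genes of a class, and the method was tested on simulated data. SE is the log2 difference divided by the root of the F statistic. DESeq2 1.42.0, upper quartile scaling, no filter, thinned sums, no doublet removal, finer clusters, kept low-UMI clusters and merged classes were the alternatives, and leaving out shared barcodes and fitting single clusters were added after seeing the data. Shares have exact (Clopper-Pearson) 95% intervals, which cover counting error only.

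The 8 genes and the lists were chosen with earlier results of these data known. Of the lists, genes are named where they passed the threshold, up to 5 per class and comparison with the largest difference, and the genes of like pattern are the 5 with the highest correlation. A few of the genes chosen this way are not reported here. The treated libraries are single, so their spread was taken from the PBS pair.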

Additional observations from a re-analysis of the deposited data

How the results depend on the processing

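No paired analysis was possible because the treated libraries carry no replicate number that matches the PBS libraries. With the 6, 6 and 5 pairs called for the combination against PBS, anti-PD-1 against PBS and the treated libraries against each other, DESeq2 called 3, 4 and 3. Merging monocytes with macrophages and all CD45-negative cells left 2 calls among 28 pairs for the combination against PBS. The Cx3cr1 calls of the single classes fall into the same merged class there, so part of that drop is set by the merge. Without any shared barcode 2, 0 and 2 of 35 pairs were called. Between the treated libraries, thinned sums gave 11 calls of 53 pairs and finer clusters gave 8. The other alternatives stayed within 1.5 times of the counts, but not always with the same pairs. Without a filter on low counts 3 of 6, 3 of 6 and 4 of 5 calls were kept, and those lost included Cx3cr1 in C1q macrophages of the combination and Ccl2, Ccl7 and Ccl12 in those of the anti-PD-1 library. Without doublet removal 3, 4 and 4 were kept, with finer clusters 5, 5 and 4, with thinned sums 5, 6 and 5, with upper quartile scaling 6, 6 and 4 and with low-UMI clusters kept 6, 5 and 4. No called difference changed sign under any alternative run on whole or merged classes. Single clusters were not part of that check, and some went the other way. Under anti-PD-1, Ccl8 rose in the C1q macrophage class and fell in its Mmp12 Hmox1 cluster. In the combination library against PBS, Ccl2 rose in the collagen-low class and was lower, without passing, in its Robo2 Csmd3 cluster. Without PBS replicate 1 or 2, the difference of Ccl2 in collagen-high cells under anti-PD-1 ranged from -1.58 to -0.85 and that of Ccl12 in C1q macrophages from -1.11 to -0.71. Cx3cr1 in C1q macrophages ranged from -1.21 to -0.96. By UMIs per cell in place of CPM the leading class was the same for 4 of the 8 genes, and by unthinned in place of thinned shares for 5 of 8. The cause of these changes was not tested, except that fewer cells and pairs were tested without shared barcodes. Without doublet removal the cycling macrophages formed no class of their own. Of 64 pairs, 55 had enough counts to be tested. The share of all genes called under each alternative is not given here, so the numbers of calls cannot be weighed against it. Thinning class sums to equal totals did not lower the number of calls (9, 9 and 11).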
